A study of Mus musculus with 2 samples.

Results

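Genes for colony-stimulating factor signalling and for cytokine receptors were examined in microglia, the resident macrophages of the brain. The group consisted of 7 of the 31053 genes listed in the files and was given as a list of names: Csf1r, Csf2ra, Csf2rb, Csf1, Il6ra, Il10ra and Il4ra. All 7 had UMIs in both libraries. The cells came from the hypothalamus of young wild-type mice, several of which were pooled, and were sorted 20 hours after injection of dye-labelled plasma protein. The fluorescence sort gave 2 groups, cells with the dye (plasma-positive) and cells without it (plasma-negative). Each group was 1 droplet library. All mice were injected, so neither group is an untreated control. The labels give no exact age, no number of mice, and not whether both groups came from the same mice. With 1 library per group no difference has a replicate check, no test was run, and each interval below covers counting error only.

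Microglia depend on the receptor tyrosine kinase CSF1R for survival, and CSF1R is engaged by CSF1 and by IL-34. GM-CSF, in contrast, signals through a ligand-binding alpha chain (CSF2RA) paired with a shared beta chain (CSF2RB). The interleukin receptors of the group also work with partner chains, IL6RA with gp130 (Il6st), IL10RA with IL10RB, and IL4RA with either the common gamma chain (Il2rg) or IL13RA1. These receptors, other than CSF1R, lack kinase activity and signal through JAK kinases and STAT transcription factors.

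The filters left 9860 cells (34534518 UMIs) in the plasma-negative library and 10362 (41984977 UMIs) in the plasma-positive one. A UMI, or unique molecular identifier, marks 1 captured RNA molecule. Median depth was 3270.5 and 3753 UMIs per cell. At least 4 of 11 microglia markers, a list that includes Csf1r, were found in 99.7% of the cells of each library. Of 76 markers of 13 other cell types, 32 had 0 UMIs in the plasma-negative and 26 in the plasma-positive library, and 1 cell in each library held at least 4 markers of another type. In contrast, 7 and 8 of these markers were seen in over 1% of cells, most often Cd79b, in 14.3% and 16.4%. Cells with 2 markers of another type made up 3.58% and 4.94%. In bulk sums like those used here, fewer cells that use a gene and less RNA per cell cannot be told apart. Shares of cells are given beside the levels. For a gene of low level such a share largely follows the level and depth, so it does not separate them either.

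Csf1r was by far the most abundant member. It encodes the CSF1 receptor and lies on chromosome 18, from 61100598 to 61132149 on the plus strand of GRCm38 in the GENCODE M21 annotation. The level reached 3057 CPM (UMI counts scaled to a common library total; 95% exact Poisson interval 3039 to 3076) in plasma-negative and 3121 CPM (3104 to 3138) in plasma-positive microglia. That placed it at rank 15 and rank 17 among the 18155 genes with a UMI. Both libraries therefore had a high Csf1r level, and the plasma-positive level divided by the plasma-negative level gave 1.02 (1.01 to 1.03, exact conditional binomial interval). This small difference exceeded counting error, with 105586 and 131029 UMIs counted.

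The cytokine receptor chains followed at much lower levels. Because 1 molecule gives 1 UMI near its 3' end, levels were not divided by gene length, and order across genes is an order of UMI levels. Il6ra, the ligand-binding chain for interleukin 6 (chromosome 3, 89864059 to 89913196, minus strand), had 308 CPM (302 to 314) without and 302 CPM (297 to 308) with plasma protein. Il10ra, the ligand-binding chain for interleukin 10 (chromosome 9, 45253837 to 45269149, minus strand), was at 196 CPM (191 to 201) and 198 CPM (194 to 202). Il4ra, the chain that binds interleukin 4 (chromosome 7, 125552120 to 125579474, plus strand), was at 69.6 CPM (66.8 to 72.4) and 71.4 CPM (68.9 to 74.0). For these 3 genes the values of both libraries lay within counting error of each other.

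The chains of the GM-CSF receptor lay in the same low range as Il4ra. Csf2ra (chromosome 19, 61223957 to 61228429, minus strand) had 89.1 CPM (86.0 to 92.3) without and 98.2 CPM (95.2 to 101.2) with plasma protein. Csf2rb (chromosome 15, 78325752 to 78353847, plus strand) was at 59.5 CPM (57.0 to 62.1) and 62.9 CPM (60.5 to 65.3). The Csf2ra intervals did not overlap and those of Csf2rb did, but this contrast was not the same after thinning, a single random draw at each depth. With each cell thinned to 1000 UMIs the plasma-positive over plasma-negative ratio was 1.04 (0.943 to 1.14) for Csf2ra and 1.19 (1.06 to 1.34) for Csf2rb, and with 2000 UMIs it was 1.12 (1.04 to 1.20) and 1.11 (1.02 to 1.21). Without thinning, the mean over cells of the CPM of each cell gave 1.04 for Csf2ra. The part of depth in these shifts was not tested. Csf2rb has a close neighbour, Csf2rb2, the interleukin 3 specific beta chain of the mouse, and reads shared between both genes could have been split or lost. Over the whole transcript 28.8% of the 30-base words of Csf2rb also occurred in Csf2rb2, and in its last 500 annotated bases 7 of 471 words (1.49%) did. Read positions were not available, so whether the counted reads fall in that last stretch was not tested.

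Csf1, the ligand of CSF1R (chromosome 3, 107741048 to 107760469, minus strand), was the least abundant member. Plasma-negative cells gave 312 UMIs, or 9.03 CPM (8.06 to 10.1). Plasma-positive cells gave 532 UMIs, or 12.7 CPM (11.6 to 13.8), so that the intervals did not overlap. The order of the 7 levels, Csf1r, Il6ra, Il10ra, Csf2ra, Il4ra, Csf2rb and Csf1, was the same in both libraries, and no neighbours in that order had overlapping intervals. Csf1r is overlapped by Hmgxb3 on the opposite strand and by the microRNA gene Mir6983 on its own strand, and antisense genes overlap Il6ra (Gm42809) and Il4ra (Gm44876). Il10ra is overlapped by the pseudogene Gm20612 on the opposite strand and by the microRNA gene Mir7086 on its own strand. The microRNA gene Mir7676-2 overlaps Csf2rb on the same strand. The use of strand in counting is not given in the sources used here. Whether reads of these overlapping genes were counted for the named genes was not tested.

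**Figure D1:**
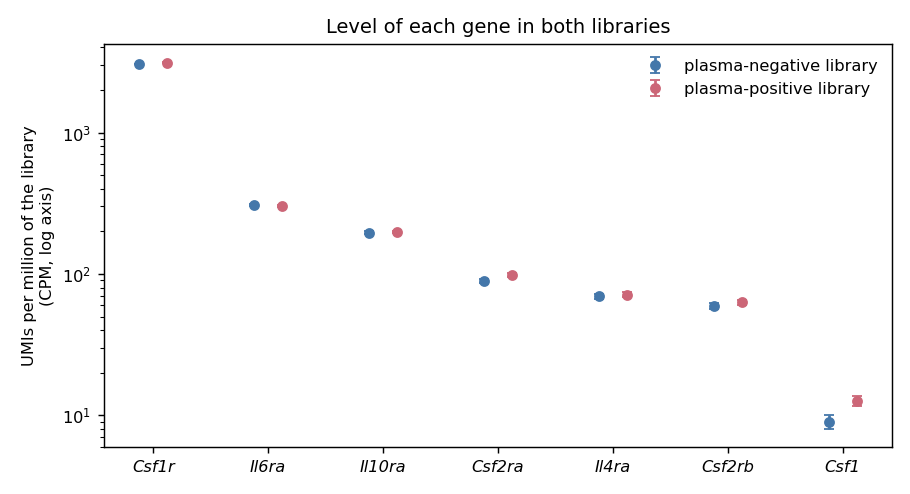
Level of each gene in CPM (log axis) in the plasma-negative (blue) and plasma-positive (red) library; points are the library values and bars the 95% exact Poisson intervals, often smaller than the point. Csf1r sits at 3057 and 3121 CPM and Csf1 at 9.03 and 12.7 CPM, with the other 5 genes between 59.5 and 308 CPM.

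The sort asks how microglia that took up plasma protein differ from those that did not. A difference was called where the log2 ratio of plasma-positive over plasma-negative CPM reached 0.32 in size. By that rule 1 of the 7 genes, Csf1, was higher with plasma protein, and 0 were lower. Among the 8355 genes that reached 10 CPM in at least 1 library, 0.934% were called higher and 0.862% lower. Csf1 reached 10 CPM only in the plasma-positive library, at 12.7 CPM against 9.03 CPM. It thus entered the comparison through the library where it was higher, which limits its call and its rank among the compared genes. The Csf1 ratio was 1.40 (1.22 to 1.62), a log2 ratio of 0.49 (0.28 to 0.69) that exceeded those of 99.5% of the compared genes. Csf2ra had the next highest ratio, 1.10 (1.05 to 1.15), above 93.3% of the compared genes. Csf2rb followed at 1.06 (0.997 to 1.12), Il4ra at 1.03 (0.973 to 1.08), Il10ra at 1.01 (0.977 to 1.04) and Il6ra at 0.980 (0.955 to 1.01), the last of which came to 1.01 with TMM scaling. Counting intervals lay above 1 for 3 members (Csf1r, Csf2ra and Csf1) and below 1 for 0, against 11.9% and 26.4% of all compared genes. With TMM scaling, which adds 0.04 to each log2 ratio, Csf2rb (1.08, 1.02 to 1.15) and Il10ra (1.04, 1.003 to 1.07) were also above 1, so that 5 of 7 were, against 19.7% of compared genes above and 16.3% below. Csf2rb was above 1 as well with totals that left out mitochondrial and ribosomal protein genes, without the deepest cells and at both thinned depths. The median log2 ratio was 0.04 over the 7 genes and -0.04 over all compared genes, whose middle values (quartiles) ran from -0.11 to 0.04. Divided by the ratio of the median gene, Il6ra came to 1.01, Il10ra to 1.04, Csf1r to 1.05, Il4ra to 1.06 and Csf1 to 1.44.

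**Figure D2:**
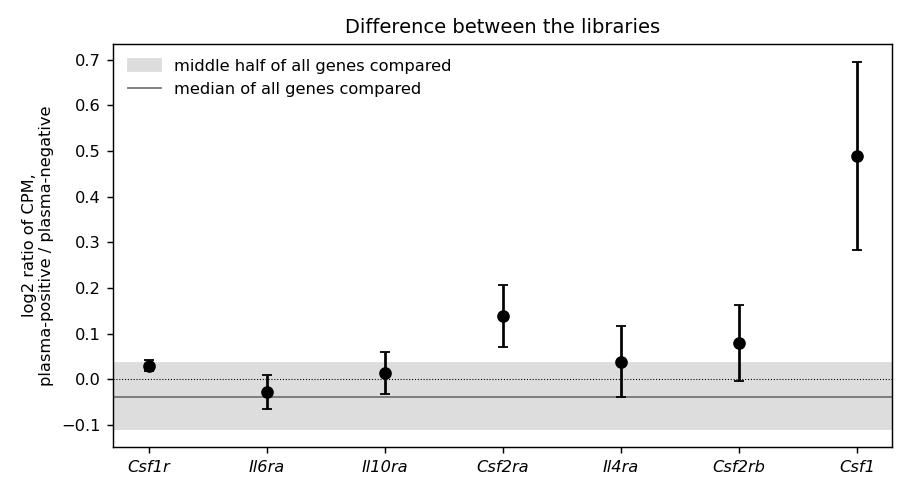
Difference between the libraries for each gene, as the log2 ratio of plasma-positive over plasma-negative CPM; points are the ratios and bars the 95% exact conditional binomial intervals. The grey band spans the quartiles of all 8355 genes compared and the grey line is their median, -0.04; Csf1, at 0.49, and Csf2ra, at 0.14, lie above the band with their whole intervals.

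Shares of cells with a UMI were compared after each cell had been thinned at random to 1000 UMIs, because a deeper library shows a low gene in more cells. This left out 796 plasma-negative and 603 plasma-positive cells that were shallower. Csf1r was seen in 93.7% (93.2% to 94.2%, exact binomial) of 9064 thinned plasma-negative cells and in 94.6% (94.2% to 95.1%) of 9759 thinned plasma-positive cells. At least 3 Csf1r UMIs were held by 55.8% and 58.3% of these cells. Without thinning Csf1r was seen in 99.0% and 99.1% of all kept cells, with a median of 9 and 11 UMIs per cell. Csf1r transcript was thus found in nearly the whole of both populations, and its variance over mean, 1.16 and 1.12 after thinning, was above the 95th percentile of all compared genes, 1.11 in both libraries. That quantity tends to grow with the level of a gene.

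The other members were seen in a minority of thinned cells. A cell without a UMI can still hold the transcript, so these are not shares of cells that use the gene. Il6ra was found in 25.1% (24.2% to 26.0%) and 24.9% (24.0% to 25.8%), and Il10ra in 18.2% (17.4% to 19.0%) and 17.8% (17.0% to 18.6%). Csf2ra was found in 8.58% (8.01% to 9.18%) and 9.21% (8.65% to 9.80%). Il4ra was found in 6.35% (5.86% to 6.88%) and 7.27% (6.76% to 7.80%), and Csf2rb in 5.21% (4.76% to 5.68%) and 6.18% (5.71% to 6.68%). Csf1 was found in 0.872% (0.691% to 1.09%) without and 1.21% (1.002% to 1.45%) with plasma protein. Intervals of the libraries overlapped for each of these genes except Csf2rb, whose nearest limits were 5.68% and 5.71%. With cells thinned to 2000 UMIs the Csf2rb intervals overlapped, at 10.5% (9.87% to 11.2%) and 11.5% (10.9% to 12.2%), whereas those of Csf2ra did not, at 15.1% (14.3% to 15.9%) and 16.9% (16.1% to 17.6%). Without thinning the shares were 57.3% and 61.9% for Il6ra, 45.4% and 50.01% for Il10ra, 24.3% and 30.02% for Csf2ra, 20.2% and 23.7% for Il4ra, 17.4% and 20.4% for Csf2rb, and 2.93% and 4.30% for Csf1. The libraries differed in depth, so these unthinned shares are not comparable between them.

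As a measure of background from free RNA, 24 markers of endothelial cells, astrocytes, neurons and oligodendrocytes were seen in a median of 0.0165% of thinned plasma-negative and 0.0717% of thinned plasma-positive cells. For 20 of these 24 genes the share was under 0.5% in each library, and the highest were 3.34% (Mag) and 3.56% (Cnp). The Csf1 shares were thus above the median of this background but below its highest genes, whereas those of the 6 receptor genes were above all 24. No second cell type was present in which the genes themselves could serve as a background.

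**Figure D3:**
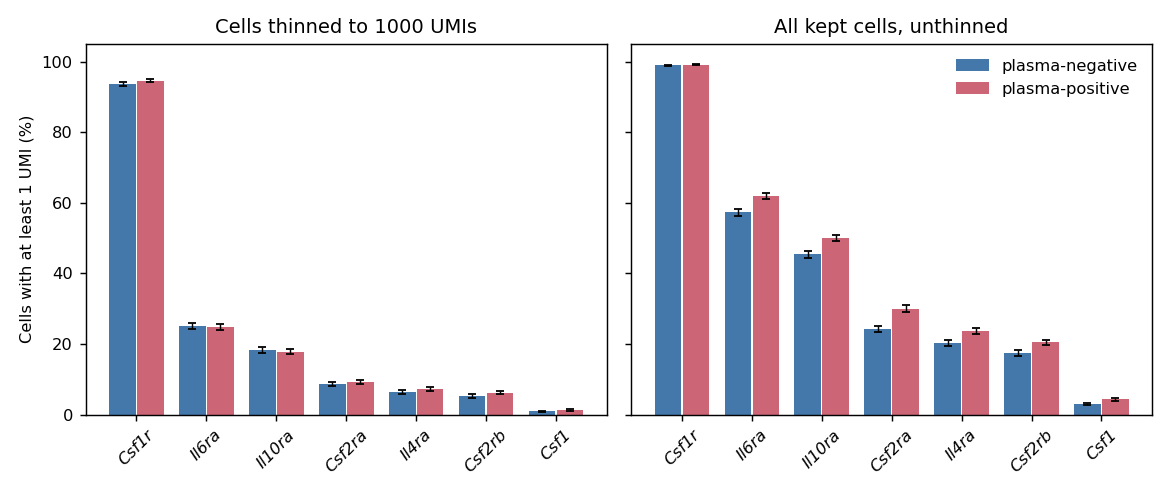
Cells with at least 1 UMI of each gene, in percent, in cells thinned to 1000 UMIs (left) and in all kept cells without thinning (right); bars are the libraries and error bars the 95% exact binomial intervals. Csf1r is seen in over 93.2% of cells in each panel, and the gap between the libraries on the right is smaller on the left for Il6ra, where the shares are 25.1% and 24.9% after thinning.

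Within single cells the members were found together about as often as their separate shares give. Among thinned cells 3.001% of the plasma-negative and 2.61% of the plasma-positive library held none of the 7 transcripts, 49.1% and 47.7% held exactly 1, and 36.1% and 37.5% held 2. For the GM-CSF receptor chains Csf2ra and Csf2rb, 0.430% of cells in the plasma-negative library held both, where the product of the shares gives 0.447%, and in the plasma-positive library the values were 0.646% and 0.569%. Il6ra and its partner Il6st were found together in 4.58% of cells against a product of 4.29%, and in 4.24% against 4.03%. For Il10ra and Il10rb the values were 3.71% against 3.38%, and 3.23% against 2.97%. Over 25 pairs in both libraries the observed share divided by the product lay between 0.756 and 1.65, and the interval from the exact binomial limits held 1 in 50 of 50 values. For pairs with Csf1r the value could not lie far above 1, because Csf1r was seen in 93.7% and 94.6% of these cells. Some pairs rested on few cells. Il4ra and Il2rg were found together in 2 plasma-negative and 3 plasma-positive cells, with intervals of 0.159 to 4.74 and 0.170 to 2.41. The count of 50 therefore does not show that links are absent, and links within these intervals were not detectable at this depth. With cells thinned to 2000 UMIs 49 of 50 intervals held 1, and the other, for Il6ra and Il6st in the plasma-positive library, was 1.06 (1.01 to 1.12).

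The partner chains and ligands put the members in their signalling context. Il10rb was at 198 CPM without and 182 CPM with plasma protein, a ratio of 0.920 (0.890 to 0.951). Il6st, at 195 and 184 CPM, had a ratio of 0.942 (0.912 to 0.974), and Il13ra1, at 92.8 and 87.9 CPM, a ratio of 0.947 (0.903 to 0.993). The intervals of these 3 partners lay below 1, as did those of 26.4% of all compared genes. With TMM scaling that of Il13ra1 held 1, at 0.972 (0.927 to 1.02). Tyrobp, the adaptor DAP12 that also works with CSF1R, was at 2673 and 2997 CPM, a ratio of 1.12 (1.11 to 1.13). Csf2rb2 was at 20.3 and 23.7 CPM, a ratio of 1.17 (1.06 to 1.29). The common gamma chain gene Il2rg stayed below 10 CPM, at 3.42 and 5.29 CPM from 118 and 222 UMIs, with a ratio of 1.55 (1.23 to 1.95). The median log2 ratio of the 5 partner genes above 10 CPM was -0.08, against -0.04 over all compared genes, and 0 of them were called in either direction.

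Apart from Csf1 and Il6, ligand transcripts were at 0 or 1 UMI per library. Of 9 ligand genes other than Csf1, 1, Il6, reached 10 CPM, at 18.3 CPM (16.9 to 19.8) without and 18.0 CPM (16.7 to 19.3) with plasma protein, a ratio of 0.982 (0.883 to 1.09). Il6 was seen in 1.94% and 1.72% of thinned cells. Il34, which encodes the second CSF1R ligand, had 1 UMI in the plasma-negative and 0 in the plasma-positive library, as had Il4 and Il5. Csf2, which encodes GM-CSF, and Csf3, Il3, Il10 and Il13 had 0 UMIs in both. A count of 0 allows up to 0.107 CPM and 0.0879 CPM (exact Poisson limits).

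Other cytokine receptor genes gave a wider frame. Of 30 on the list, 11 reached 10 CPM, of which 0 were called in either direction. By counting interval 1 was above 1 (Lifr) and 3 were below 1 (Csf3r, Il17ra and Il21r), and the median log2 ratio was -0.04, as over all compared genes. Csf3r, the G-CSF receptor gene, was at 198 and 180 CPM, with a ratio of 0.910 (0.881 to 0.941). Il21r, for the interleukin 21 receptor, was at 161 and 143 CPM, with a ratio of 0.885 (0.853 to 0.918). Tnfrsf1a, a tumour necrosis factor receptor gene, was at 120 and 119 CPM.

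Among JAK, STAT and feedback genes, Stat2, a transcription factor gene of interferon signalling, was at 15.3 and 20.1 CPM with a ratio of 1.31 (1.17 to 1.46), which met the rule for a called difference. Jak1, the most abundant JAK gene, was at 216 and 211 CPM, and Ptpn6, for the phosphatase SHP-1, at 202 and 194 CPM. Pias1, for an inhibitor of STAT signalling, was at 93.0 and 85.2 CPM. Of 12 listed genes linked to CSF1R, not all of which act downstream of it, 0 were called. By counting interval 2 were above 1 (Grb2 and Plcg2) and 4 below 1 (Inpp5d, Pik3r1, Gab2 and Ccnd1), against 11.9% and 26.4% of all compared genes. Inpp5d, for the phosphatase SHIP1, was at 487 and 458 CPM, Spi1, for the transcription factor PU.1, at 410 and 413 CPM, and Pik3r1, for a regulatory subunit of phosphoinositide 3-kinase, at 257 and 242 CPM. The median log2 ratio of these 12 genes was -0.02.

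Levels were then compared between ranges of cells within each library. A range was the set of cells that held, after thinning to 1000 UMIs, at least 3 UMIs of a list of genes, and it is not a cell type. The interferon range, from a list of 15 interferon-induced genes, had 124 of 9064 plasma-negative cells (1.37%) and 504 of 9759 plasma-positive cells (5.16%). Of these, 58 and 171 cells were exactly at 3 UMIs, and 283 and 442 further cells had 2.

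Csf1 was more abundant in the interferon range of both libraries. In the plasma-negative library it was at 27.4 CPM (14.6 to 46.9, from 13 UMIs) inside the range and 8.75 CPM outside it, a ratio of 3.13 (1.65 to 5.44). In the plasma-positive library it was at 34.7 CPM (27.4 to 43.3, from 78 UMIs) inside and 11.2 CPM outside, a ratio of 3.09 (2.39 to 3.93). The range held 4.25% and 15.0% of the Csf1 UMIs of the thinned cells, counted at full depth. By counting interval 2 of the 7 members were higher in the range (Csf1 and Il10ra) and 1 lower (Csf1r) in the plasma-negative library, against 4.8% and 6.09% of 8342 genes. In the plasma-positive library 3 were higher (Csf1, Csf2ra and Il4ra) and 2 lower (Csf1r and Il6ra), against 7.46% and 24.8%. With finer steps, chosen after these values were seen, Csf1 went from 8.47 CPM in plasma-negative cells with 0 interferon UMIs to 40.5 CPM (16.3 to 83.4) in those with 5 or more. In plasma-positive cells the same steps gave 10.5 CPM and 47.4 CPM (35.3 to 62.3).

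Between the libraries, the Csf1 ratio was 1.28 (1.11 to 1.49) outside the interferon range and 1.27 (0.699 to 2.49) inside it. In the cells outside all 6 ranges, an analysis added after the data were seen, it was 1.22 (1.04 to 1.43), which no longer met the rule for a called difference. Markers of border macrophages, macrophages that line the vessels and membranes of the brain, were also higher in the interferon range of the plasma-positive library. Their 8 genes summed to 31.6 CPM (24.7 to 39.9) inside and 4.81 CPM (4.15 to 5.55) outside there, with 1 of 8 at 0 inside. In the plasma-negative library the sums were 6.32 CPM (1.30 to 18.5, from 3 UMIs) and 3.59 CPM (2.97 to 4.29), which overlapped, with 7 of 8 at 0 inside. Markers of monocytes, 6 genes, summed to 27.4 CPM inside and 3.50 outside, with 4 of 6 at 0 inside, in the plasma-negative library, and to 17.4 and 2.90 CPM, with 3 of 6 at 0 inside, in the other. The part of these markers in the Csf1 ratio between libraries was not tested. Over all kept cells the border macrophage sums were 3.62 and 6.22 CPM, and Lyve1 was at 0 in both libraries. Without the cells that held any of these 8 markers, which took 3 of 124 and 27 of 504 cells from the range, the Csf1 ratio of the range to other cells was 3.23 (1.70 to 5.61) and 3.27 (2.53 to 4.17). The median mitochondrial share in the range was 1.03% and 1.38%, against 1.08% and 1.27% over all kept cells.

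The ratios of the receptor genes lay between 0.752 and 1.31, some below and some above 1. Csf1r was at 2803 CPM inside and 3054 CPM outside in the plasma-negative library, a ratio of 0.918 (0.869 to 0.969), and at 2655 and 3142 CPM in the plasma-positive library, a ratio of 0.845 (0.823 to 0.867). The median gene had ratios of 0.934 and 0.900 there, so a typical gene was also lower in the range. Il6ra was at 230 CPM inside and 306 CPM outside in the plasma-positive library, a ratio of 0.752 (0.688 to 0.822). In the plasma-negative library its ratio was 0.971 (0.817 to 1.15). Csf2ra had ratios of 1.22 (0.904 to 1.61) and 1.29 (1.14 to 1.46), the second from 123 CPM inside and 95.4 CPM outside. Il4ra had ratios of 0.879 (0.587 to 1.27) and 1.20 (1.03 to 1.40), Il10ra of 1.31 (1.08 to 1.57; 1.04, 0.925 to 1.17, with the range begun at 2 UMIs) and 0.970 (0.878 to 1.07), and Csf2rb of 0.818 (0.517 to 1.23) and 1.01 (0.848 to 1.20). Whether the libraries differ in these ratios was not tested.

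**Figure D4:**
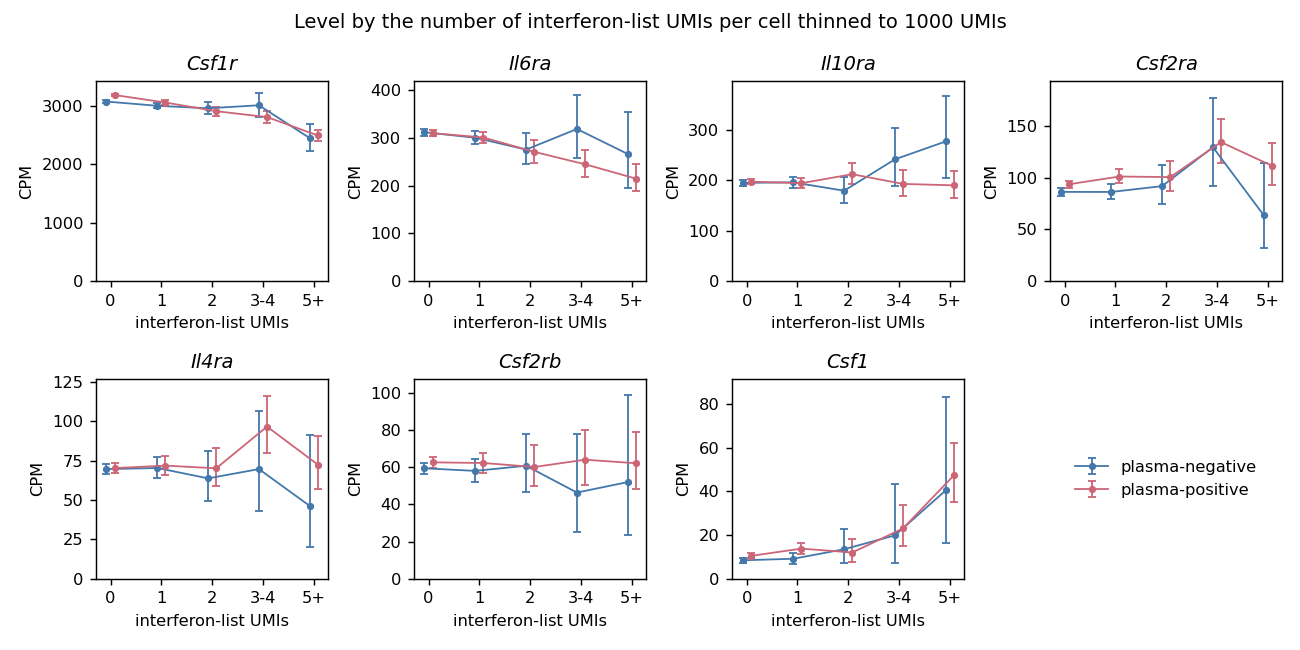
Level of each gene in CPM, by the number of UMIs of 15 interferon-induced genes that a cell held after thinning to 1000 UMIs (0, 1, 2, 3 or 4, and 5 or more), for the plasma-negative (blue) and plasma-positive (red) library; bars are 95% exact Poisson intervals and the vertical axes start at 0. Csf1 is highest at 5 or more UMIs in both libraries, at 40.5 and 47.4 CPM, where Csf1r is lowest, at 2447 and 2491 CPM.

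Promoter sequences were matched by symbol for 4 of the 7 genes, Csf1, Csf2ra, Il6ra and Il4ra, in RefSeq tables of build GRCm38.p6. The levels of all 4 differed between the interferon range and other cells by counting interval in at least 1 library, Il4ra with a ratio of 1.20 (1.03 to 1.40) in the plasma-positive one. The 250 bases before the RefSeq start are shown for 3 of them, Csf1, Csf2ra and Il6ra, so that they can be read beside each other. Each is written 5' to 3' on the strand of the gene, with motif matches in capitals. Searched on both strands were the NF-kappaB (kB) motif GGANNNTCC, the interferon-stimulated response element core GAAANNGAA, the STAT motif TTCNNNGAA and the PU.1 core GAGGAAGT.
Csf1 (chr3:107760470-107760719, minus strand): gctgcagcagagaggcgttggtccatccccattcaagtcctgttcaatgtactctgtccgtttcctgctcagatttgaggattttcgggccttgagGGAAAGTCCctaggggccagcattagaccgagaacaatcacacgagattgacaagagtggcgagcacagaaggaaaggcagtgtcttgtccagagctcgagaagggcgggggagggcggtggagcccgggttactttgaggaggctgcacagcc
Csf2ra (chr19:61228419-61228668, minus strand): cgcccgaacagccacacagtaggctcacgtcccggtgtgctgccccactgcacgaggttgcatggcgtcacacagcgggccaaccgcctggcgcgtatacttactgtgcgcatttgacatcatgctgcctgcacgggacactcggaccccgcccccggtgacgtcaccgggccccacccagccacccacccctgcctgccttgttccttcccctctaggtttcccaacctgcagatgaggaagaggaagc
Il6ra (chr3:89913197-89913446, minus strand): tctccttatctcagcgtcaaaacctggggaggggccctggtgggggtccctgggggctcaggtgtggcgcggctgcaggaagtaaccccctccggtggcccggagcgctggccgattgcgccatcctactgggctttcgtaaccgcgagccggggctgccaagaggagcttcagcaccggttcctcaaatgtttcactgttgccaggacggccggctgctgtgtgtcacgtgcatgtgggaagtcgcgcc
The Csf1 sequence held 1 kB match, which begins 154 bases before the RefSeq start and reads the same motif on both strands. The other 2 sequences held 0 matches, and so did that of Il4ra, which is not printed. The RefSeq start of Csf2ra lies a few bases inside the gene as GENCODE gives it, so the end of its sequence overlaps the GENCODE gene. Among 32851 promoters of the same length, 7.27% held the kB motif, 7.13% the response element core, 7.02% the STAT motif and 2.44% the PU.1 core. Each share is for 1 motif in 1 promoter, whereas 4 motifs were searched in 4 promoters, so 1 match among them is less unusual than any single share. The motif letters were chosen after values had been seen. The motifs do not overlap in the sequences shown, and a match describes the letters only.

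The Apoe range, cells with at least 3 UMIs of the lipid carrier gene Apoe, had 151 plasma-negative and 633 plasma-positive cells, with 62 and 116 of them at exactly 3 UMIs and 95 and 237 more cells at 2. Csf1r was at 2842 CPM inside and 3054 CPM outside in the plasma-negative library, a ratio of 0.931 (0.885 to 0.978), and at 2640 and 3155 CPM in the plasma-positive library, a ratio of 0.837 (0.819 to 0.856). The median gene had ratios of 0.895 and 0.863. Cells of the range had a higher mitochondrial share, with medians of 1.54% inside and 1.05% outside in the plasma-negative library and 1.71% and 1.23% in the other, and the part of this in the ratios was not tested. Il6ra had ratios of 0.781 (0.653 to 0.926) and 0.715 (0.661 to 0.772), and Il10ra of 0.733 (0.580 to 0.913) and 0.862 (0.788 to 0.941). These 3 genes were lower in the range by counting interval in both libraries, as were 9.91% of 8354 genes without and 38.4% with plasma protein. Csf2ra went the other way in the plasma-positive library, at 124 CPM inside and 94.7 CPM outside, a ratio of 1.31 (1.17 to 1.45), and Csf1 had a ratio of 1.60 (1.20 to 2.09), or 1.20 (0.841 to 1.68) with the range begun at 4 UMIs. These 2 of 7 members were higher there by counting interval, against 6.64% of all genes. In the plasma-negative library 0 of 7 were, against 4.09%, and the ratios were 1.06 (0.789 to 1.40) for Csf2ra and 1.82 (0.825 to 3.51) for Csf1.

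Apoe and interferon ranges shared 5 plasma-negative and 149 plasma-positive cells. In the plasma-positive library Csf1 was at 10.9 CPM (9.83 to 11.98) in cells of neither range and at 17.2 CPM (12.4 to 23.4) in cells of the Apoe range only. Cells of the interferon range only had 39.6 CPM (30.1 to 51.0), and cells of both had 25.1 CPM (15.1 to 39.2). Csf1 was thus highest with interferon UMIs and without 3 Apoe UMIs, although the last 2 intervals overlapped. Il6ra was at 310 CPM, 234 CPM, 257 CPM and 177 CPM (149 to 210) in the same order of cells, lowest in those of both ranges. Csf1r was at 3169, 2728, 2802 and 2365 CPM.

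The other 4 ranges were the division, Ccl3 and Ccl4, MHC class II and immediate early ranges. In 40 plasma-positive cells with transcripts of cell division, Csf1 was at 73.9 CPM from 16 UMIs, a ratio to other cells of 6.06 (3.44 to 9.94). It was the 1 member that was higher there by counting interval, against 12.7% of 8355 genes. Csf1r, Csf2rb, Il6ra and Il10ra were lower, with ratios of 0.823, 0.442, 0.535 and 0.490, against 8.83% of genes. In 14 plasma-negative cells of that range Csf1 had 0 UMIs, which allows a ratio of up to 5.59. There Csf2ra, from 15 UMIs, was higher, with a ratio of 2.36 (1.32 to 3.91), against 8.15% of genes, and Csf1r was lower, at 0.651 (0.549 to 0.765), against 4.68%. In the plasma-positive library the Csf2ra ratio was 0.857 (0.507 to 1.36). In 31 plasma-positive cells with Ccl3 and Ccl4, chemokine genes, Csf1 was at 94.5 CPM from 16 UMIs, a ratio of 7.75 (4.40 to 12.7), and it was again the 1 member higher by counting interval, against 6.66% of 8353 genes. How many cells gave the 16 Csf1 UMIs of the division range, or those of this range, is not given here. The highest count in a plasma-positive cell was 12 Csf1 UMIs, whereas the intervals take each UMI as independent. Few cells could thus account for these 2 ratios. The 10 plasma-negative cells of the Ccl3 and Ccl4 range had 2 Csf1 UMIs, a ratio of 4.38 (0.528 to 15.9), and 0 members were higher by counting interval, against 3.75% of genes. Csf1r was lower in both libraries, with ratios of 0.688 (0.564 to 0.832) and 0.723 (0.652 to 0.799). It was the 1 such member in the plasma-negative library, against 1.72% of genes, and was joined by Il6ra (0.547) and Il4ra (0.413) in the other, against 6.5%. Cells with MHC class II transcripts numbered 14 and 23, with 1 Csf1 UMI in each library. In the plasma-negative cells Il10ra, at 0.309 (0.0843 to 0.793), and Il4ra, with 0 UMIs and a ratio of up to 0.805, were lower by counting interval, against 1.32% of genes. In the plasma-positive cells Csf1r was, at 0.688 (0.601 to 0.784), against 5.9%. There 0 members were higher in either library, against 2.62% and 4.9% of genes.

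In 258 plasma-negative and 220 plasma-positive cells with immediate early transcripts, Csf1r had ratios of 0.963 (0.927 to 1.001) and 0.966 (0.929 to 1.004). Csf2ra was higher in the plasma-negative range, at 1.36 (1.11 to 1.65), against 5.33% of genes, and 0 members were lower, against 3.11%. With the range begun at 2 UMIs the Csf2ra ratio was 1.06 (0.944 to 1.19). In the plasma-positive range Il6ra was lower, at 0.862 (0.754 to 0.981), against 3.26% of genes, and 0 members were higher, against 4.41%. With the range begun at 2 UMIs that Il6ra ratio was 0.977 (0.921 to 1.04).

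Mitochondrial share is a sign of RNA quality that differed between the libraries, with medians of 1.08% and 1.27% of UMIs. Cells of both libraries were ranked by it and put in 10 bins of equal size. Csf1r ranged from 2808 to 3302 CPM over the plasma-negative and from 3009 to 3194 CPM over the plasma-positive bins. The ratio between the libraries was 1.08 (1.04 to 1.11) in the lowest bin and 0.953 (0.921 to 0.985) in the highest bin, so the small Csf1r difference over all cells did not hold its direction in each bin. Csf2ra was higher in the plasma-positive library in 10 of 10 bins, with ratios from 1.01 to 1.19, of which 3 had intervals above 1. The share of all genes that were higher in 10 of 10 bins is not given here. Csf1 was higher in 9 of 10 bins, with 4 intervals above 1 and 1 below 1. Its ratio was 0.434 (0.250 to 0.731) in the fourth bin and 2.46 (1.46 to 4.36) in the highest bin, where cells were shallow, with medians of 1134.5 and 1882.5 UMIs. Il6ra was higher in 4 and Il10ra in 8 of 10 bins. Il4ra, higher in 5 bins, had 1 interval above 1, in the highest bin, where the ratio was 1.46 (1.14 to 1.88).

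**Figure D5:**
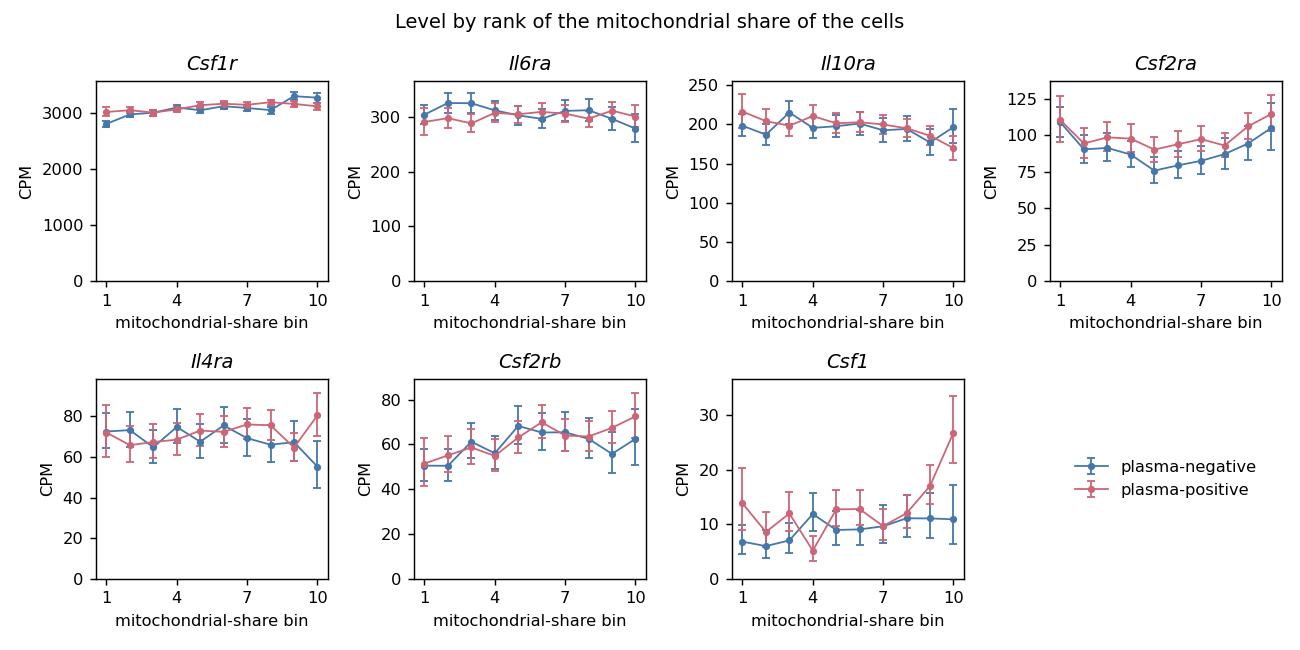
Level of each gene in CPM across 10 bins of cells ranked by mitochondrial share (1 is the lowest), for the plasma-negative (blue) and plasma-positive (red) library; bars are 95% exact Poisson intervals and the vertical axes start at 0. Csf2ra of the plasma-positive library lies above that of the plasma-negative library in 10 of 10 bins, with the interval of the ratio above 1 in 3. Csf1 reaches 26.8 CPM in the highest plasma-positive bin against 10.9 CPM in the plasma-negative one.

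Over these 20 points, 10 bins in each of 2 libraries, the genes most like each member were listed by Pearson's r of log2 CPM among 3540 genes with at least 50 CPM in a library. Points of a library share its preparation, and the bins share their rank by mitochondrial share, so r describes these points only. For Csf1r they were Trf (r = 0.82), Lag3 (0.82) and mt-Nd5 (0.81), the last of which helped to define the bins. For Csf2ra they were Parp14 (0.79), Vps13c (0.74) and Cstb (0.72), and for Csf2rb Rplp1 (0.78), Rpl36a (0.78) and Tpt1 (0.77). For Il6ra they were Acbd3, Calu and Pdia3 (0.72 to 0.71), for Il10ra Xpot, Idh2 and Arhgap39 (0.84 to 0.77), and for Il4ra Rpl36al, Myh9 and Stk4 (0.76 to 0.71). Between members r was at most 0.50, for Csf1r and Csf2rb, and no member was among the 3 nearest genes of another. Csf1 did not reach 50 CPM and was left out here.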

How the data were processed

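The 2 libraries of sorted hypothalamic microglia, 1 per group, were analysed. The deposited values are whole UMI counts, a value for each gene in each cell. Per the file headers the matrices come from Cell Ranger 6.1.2, whereas the submitters' processing notes name Cell Ranger 3.0.1. Build, annotation, strand use and cell calling settings are not given in the sources used here, and cell barcodes were not used here. Libraries were made with a Chromium Single Cell 3' kit, per the labels' protocols.

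Cells with at least 500 UMIs, 300 genes and at most 10% mitochondrial UMIs were kept, which left out 1 plasma-negative cell for few genes and 17 plus 28 cells for mitochondrial share. No doublet caller was run. As an alternative, the 778 and 859 deepest cells (0.8% per 1000 cells) were left out. Counts were summed per library and divided by its total (CPM), with no pseudocount. Genes at 10 CPM or more in at least 1 library were compared. Intervals are at 95%. A difference was called at a log2 ratio of 0.32 in size. Genes named were the members, partner chains, ligands, the 3 most abundant genes of each other list, those called, and the 3 nearest genes over the bins. An item of the signalling list, and the counts that need it, are not reported here. Members and lists were chosen with earlier results of these data known. Coordinates come from GENCODE M21 (GRCm38), in which 30934 of 31053 identifiers were found, and whose build need not be the authors'. Steps of interferon UMIs, the marker exclusions and the motif letters were chosen after values had been seen. The interval and thinning functions were tested on simulated data. Tools were Python 3.11.15, numpy 2.4.6, pandas 2.3.3, scipy 1.17.1, matplotlib 3.10.9 and, for TMM scaling only, edgeR 4.0.16.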

Additional observations from a re-analysis of the deposited data

How the results depend on the processing

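The alternatives were other cell filters, doublets, scaling, thinning and weighting. The Csf1 ratio lay between 1.34 and 1.44 under the planned ones, and was 1.36 without cells holding 2 markers of another cell type and 1.22 outside all 6 ranges, both added after the data were seen. Thinning to 1000 UMIs gave 1.03 for Csf1r, 1.04 (0.943 to 1.14) for Csf2ra, 1.19 (1.06 to 1.34) for Csf2rb and 1.13 (1.01 to 1.26) for Il4ra. The mean over cells gave 1.04 for Csf2ra. With TMM scaling, which adds 0.04 to each log2 ratio, Csf1r came to 1.05 and Il6ra to 1.01. A total without mitochondrial and ribosomal protein genes gave 1.04 for Csf1r. Outside all 6 ranges Csf1r was at 1.04 and Il6ra at 1.01. The cause was not tested. Il6ra thus changed side of 1 within counting error. Genes called higher numbered 78, or 13 and 485 with minimums of 50 and 1 CPM. Those called lower numbered 72, or 6 and 547 with these minimums and 41 with TMM scaling. All 28 shares of cells moved with depth. The ranges at cuts of 2, 3 and 4 UMIs share cells, and the intervals of small ranges were wide, so staying within an interval is a weak check. Of 168 ratios between ranges and other cells at cuts of 2 and 4 UMIs, 156 stayed within their intervals and 0 reversed. Among the other 12, Csf1 in the plasma-positive interferon range was 2.17 (1.73 to 2.70) at 2 UMIs, and Il10ra in the plasma-negative one was 1.04 (0.925 to 1.17). The Apoe-range Csf1 ratio of the plasma-positive library was 1.20 (0.841 to 1.68) at 4 UMIs. With 5 bins in place of 10, 14 of 14 ratios of the highest to the lowest bin stayed within their intervals. No paired analysis was possible because there was 1 library in each group and no test was run, and for the same reason no replicate could be left out.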

Other observations

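Single cells differed in how many Csf1 molecules they held. In the plasma-negative library 269 cells had 1 Csf1 UMI, 17 had 2 and 3 had 3 or more, with a highest count of 3. In the plasma-positive library 392 cells had 1, 38 had 2 and 16 had 3 or more, with a highest count of 12. Cells with 3 or more held 2.88% of the plasma-negative and 12.03% of the plasma-positive Csf1 UMIs. The plasma-positive cells were deeper, and the part of depth in these counts was not tested beyond the thinned values.

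Csf1r was held with up to 92 UMIs in a plasma-negative and 120 in a plasma-positive cell. None of its transcripts was seen in 99 plasma-negative and 90 plasma-positive kept cells. In single cells without thinning, 6 plasma-negative and 16 plasma-positive cells held all 7 transcripts.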
